A study of Mus musculus with 3 samples.

Results

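The genes described here are 7 markers of the pyramidal neurons of hippocampal fields CA3 and CA2, found by name among the 54532 genes of the expression table. The CA3 markers are Bok, Iyd, Prss35 and Spock1, and the CA2 markers are Amigo2, Rgs14 and Pcp4. All 7 matched 1 protein-coding gene each. Their levels were read in the hippocampus of 10-month-old C57BL/6 mice of 3 genotypes, with 1 library of each: wild type (WT), PS19, and PS19 with a single functional Zbp1 allele (PS19 Zbp1+/-). The PS19 line, a model of tau pathology, expresses human tau from a transgene under the mouse Prnp promoter. WT and PS19 carry no Zbp1 mutation by their labels, and Zbp1 encodes a sensor of Z-form nucleic acids. The labels do not give the sex, the number of animals behind a library or a batch.

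CA3 pyramidal neurons receive the mossy fibres of dentate granule cells, excite one another through recurrent collaterals and send the Schaffer collaterals to CA1. CA2 is the small field between CA3 and CA1. It is known for its role in social memory and for synapses that resist long-term potentiation, a property that depends on Rgs14. In RNA from whole hippocampus, fewer cells of a type and less RNA per cell cannot be told apart, and reads from other cells that use the same gene are counted with those of CA3 and CA2.

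The libraries held between 16400328 and 17109734 reads in genes. The PS19 library had 91 reads of Zbp1, WT had 5, and PS19 Zbp1+/- had 0, which allows an FPKM of up to 0.0537. FPKM counts fragments per kilobase of a gene, relative to the size of the library. A gene with 1 intact allele and few reads in WT may show no read, so these counts leave the heterozygous label unsettled. Xist reads numbered 11062 (WT), 13350 (PS19) and 0 (PS19 Zbp1+/-) and reads of the Y-linked Ddx3y 0, 0 and 711, so genotype and sex cannot be told apart in comparisons with PS19 Zbp1+/-. Weak genes were also lost more often there: of genes with 8 to 12 reads in both other libraries, 16% had no read in PS19 Zbp1+/- (57 of 357; exact Clopper-Pearson 95% interval 12.3% to 20.2%). The share was 2.14% for WT and 0.41% for PS19. No difference below has a replicate check, and every interval covers counting error only.

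On the log2(FPKM + 1) scale, Pcp4 alone among the 7 markers differed by 2-fold or more between libraries, and it did so in both comparisons of PS19 Zbp1+/-. Pcp4 was about level between WT and PS19 and lower by a factor of 3.02 in PS19 Zbp1+/- against PS19. Bok, of CA3, was lowest in the same library by a smaller margin. The other CA2 markers, Rgs14 and Amigo2, had their highest values there, as did Spock1 of CA3. In both comparisons of PS19 Zbp1+/-, each field had markers that were higher and markers that were lower on this scale. These directions depend in part on the scaling. Against PS19, Spock1 and Amigo2 were at -0.05 and -0.03 in TPM. Set against the excitatory neuron median, every CA3 marker was lower in PS19 Zbp1+/- than in PS19, with Spock1 at -0.18 and Prss35 at -0.13.

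**Figure D1:**
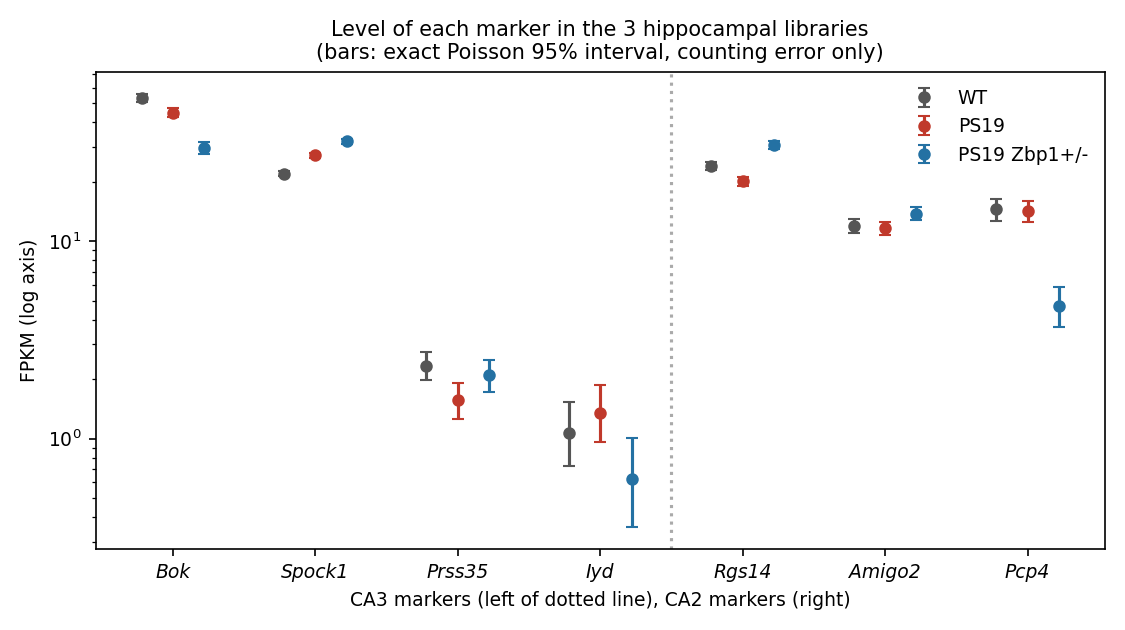
FPKM of the 4 CA3 and 3 CA2 markers (log axis) in the WT, PS19 and PS19 Zbp1+/- libraries, with exact Poisson 95% intervals as bars. Pcp4 is at 14.5 and 14.2 in WT and PS19 and at 4.68 in PS19 Zbp1+/-, while Rgs14 is highest in PS19 Zbp1+/- at 30.6.

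Pcp4 and Bok were lower in PS19 Zbp1+/- than in both other libraries with more than 50 reads in each, and the DNA upstream of their start sites is shown for that reason. The windows are the 250 bases before the RefSeq start on build GRCm38.p6, 5' to 3' on the gene's strand. Capitals mark GGGCGG, the core of an Sp-family GC box, found on either strand.
Pcp4 (chr16:96467356-96467605, plus strand): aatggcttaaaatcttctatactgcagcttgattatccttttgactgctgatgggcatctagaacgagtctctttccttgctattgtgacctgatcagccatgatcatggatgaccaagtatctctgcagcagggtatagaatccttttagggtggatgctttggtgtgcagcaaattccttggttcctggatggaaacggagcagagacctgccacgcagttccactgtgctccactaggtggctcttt
Bok (chr1:93685325-93685574, plus strand): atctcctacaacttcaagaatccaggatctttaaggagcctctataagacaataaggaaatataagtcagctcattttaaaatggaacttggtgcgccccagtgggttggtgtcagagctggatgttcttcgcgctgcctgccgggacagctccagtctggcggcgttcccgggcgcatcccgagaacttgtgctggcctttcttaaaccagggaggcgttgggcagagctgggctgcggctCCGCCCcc
The Pcp4 window held no GGGCGG, 3 CG dinucleotides and 46.8% G and C. The Bok window held 1 GGGCGG, 12 CG dinucleotides and 55.2% G and C. Over 32851 RefSeq windows of this length, 32.7% held GGGCGG and the median number of CG dinucleotides was 6. Neither window held the E-box CANNTG, present in 66.2% of windows, or TATAAA, present in 12.4%, on either strand (the motifs searched have no overlap with one another in these windows). The windows of Prss35, Spock1 and Amigo2 also held neither, so this is not particular to Pcp4 and Bok. The Iyd window, which overlaps an Iyd exon, held both. A match or its absence describes these letters and the window searched only.

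Among the CA2 markers, Pcp4 (ENSMUSG00000090223; GRCm38 chromosome 16, 96467606 to 96525793, plus strand) encodes a small IQ-motif protein, also called PEP-19, that binds calmodulin and speeds its exchange of calcium. Its FPKM was 14.5 (WT), 14.2 (PS19) and 4.68 (PS19 Zbp1+/-), from 256, 251 and 76 reads. WT and PS19 had close values, and PS19 Zbp1+/- was below both. The read ratio was 0.979 for PS19 over WT (exact 95% interval 0.819 to 1.17), 0.331 for PS19 Zbp1+/- against PS19 (0.252 to 0.429) and 0.324 for PS19 Zbp1+/- over WT (0.247 to 0.42). As differences of log2(FPKM + 1), these were -0.03, -1.42 and -1.44. On that scale 2.08% of the 12772 genes tested between PS19 Zbp1+/- and PS19 were as low as Pcp4 or lower, and 0.941% of the 12436 tested against WT. Pcp4 shares 243 of its 1026 exon bases with Igsf5 on the same strand, which had 0 reads in all 3 libraries, so reads over those bases may be missing from its level.

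Rgs14 (ENSMUSG00000052087; chromosome 13, 55369732 to 55384687) encodes a scaffold that deactivates Gi proteins and binds Ras-family GTPases, and that restrains plasticity at CA2 synapses. It stood at 24.1 FPKM (WT), 20.1 (PS19) and 30.6 (PS19 Zbp1+/-), from 1765, 1474 and 2054 reads. PS19 was the lowest library and PS19 Zbp1+/- the highest, whereas Pcp4 was lowest in PS19 Zbp1+/-. The read ratios were 0.833 for PS19 over WT (0.777 to 0.894), 1.52 for PS19 Zbp1+/- over PS19 (1.42 to 1.63) and 1.27 for PS19 Zbp1+/- over WT (1.19 to 1.35). Between PS19 Zbp1+/- and PS19, 9.5% of genes were as high as Rgs14 or higher on the log2(FPKM + 1) scale. The size of that difference, 0.58, depends on the scaling. It was 0.40 by total reads, 0.31 in TPM and 0.18 against the excitatory neuron median.

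Amigo2 (ENSMUSG00000048218; chromosome 15, 97244125 to 97247287), a membrane adhesion protein with leucine-rich repeats and an immunoglobulin domain, is used as a CA2 marker and is also listed among genes of reactive astrocytes. Its level was 11.9 FPKM (WT), 11.6 (PS19) and 13.8 (PS19 Zbp1+/-), from 651, 633 and 692 reads. It varied least of the 3 CA2 markers. The read ratio was 0.97 for PS19 over WT (0.868 to 1.08) and 1.19 for PS19 Zbp1+/- against PS19 (1.07 to 1.33). The difference of 0.24 between PS19 Zbp1+/- and PS19 turned to -0.03 after rescaling to TPM. The 10 astrocyte genes listed here had a summed FPKM of 594 (WT), 1640 (PS19) and 720 (PS19 Zbp1+/-), with none at 0, and all 10 were higher in PS19 than in WT. Their part in the Amigo2 values was not tested. Amigo2 shares 58 exon bases with Pced1b on the other strand, which had 103, 96 and 86 reads.

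Among the CA3 markers, Bok (ENSMUSG00000026278; chromosome 1, 93685660 to 93695764) encodes a pore-forming member of the Bcl2 family that promotes cell death. Bok stood at 53.3 FPKM (WT), 44.8 (PS19) and 29.7 (PS19 Zbp1+/-), from 1693, 1426 and 864 reads. Bok was lower in PS19 than in WT and lower again in PS19 Zbp1+/-. The read ratio was 0.841 for PS19 over WT (0.783 to 0.903), 0.662 for PS19 Zbp1+/- over PS19 (0.607 to 0.721) and 0.556 for PS19 Zbp1+/- over WT (0.512 to 0.604). Its difference of -0.82 from WT in PS19 Zbp1+/- was inside 2-fold, and 3.59% of genes were as low or lower. The PS19 minus WT difference of -0.25 equalled the median of genes of like GC content and length, -0.25 over 450 genes.

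Spock1 (ENSMUSG00000056222; chromosome 13, 57421195 to 57908332, minus strand) encodes testican-1, a secreted proteoglycan of the extracellular matrix. Its level was 22 FPKM (WT), 27.2 (PS19) and 32.0 (PS19 Zbp1+/-), from 3178, 3931 and 4236 reads. The order of the libraries was the reverse of that for Bok. Read ratios were 1.23 for PS19 over WT (1.18 to 1.29), 1.18 for PS19 Zbp1+/- over PS19 (1.13 to 1.23) and 1.45 for PS19 Zbp1+/- over WT (1.39 to 1.52). The difference of 0.23 between PS19 Zbp1+/- and PS19 was -0.05 in TPM, so its direction depends on the scaling.

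Prss35 and Iyd were the weak members. Prss35 (ENSMUSG00000033491; chromosome 9, 86743649 to 86758443), a secreted relative of trypsin-like serine proteases, was at 2.34 FPKM (WT), 1.56 (PS19) and 2.09 (PS19 Zbp1+/-), from 139, 93 and 114 reads. PS19 was the lowest library, at a read ratio of 0.668 over WT (0.508 to 0.874). PS19 Zbp1+/- was at 1.34 over PS19 (1.01 to 1.78), and WT and PS19 Zbp1+/- were not distinguishable at this depth (0.894, 0.692 to 1.15). The Prss35 difference of 0.27 between PS19 Zbp1+/- and PS19 was 0.15 when scaled by total reads. Against the excitatory neuron median it was -0.13, so its direction depends on the scaling. Iyd (ENSMUSG00000019762; chromosome 10, 3540240 to 3554877), which recovers iodide from iodinated tyrosines and is best known from the thyroid, was at 1.07 (WT), 1.35 (PS19) and 0.623 (PS19 Zbp1+/-), from 30, 38 and 16 reads. The ratio was 1.26 for PS19 over WT, with an interval that includes 1 (0.763 to 2.11). It was 0.46 for PS19 Zbp1+/- over PS19 (0.239 to 0.845), that is 2.17-fold lower, but -0.54 on the log2(FPKM + 1) scale, which understates differences of weak genes. With 16 reads in the library that lost weak genes most often, its low value there is less certain than the interval states.

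**Figure D2:**
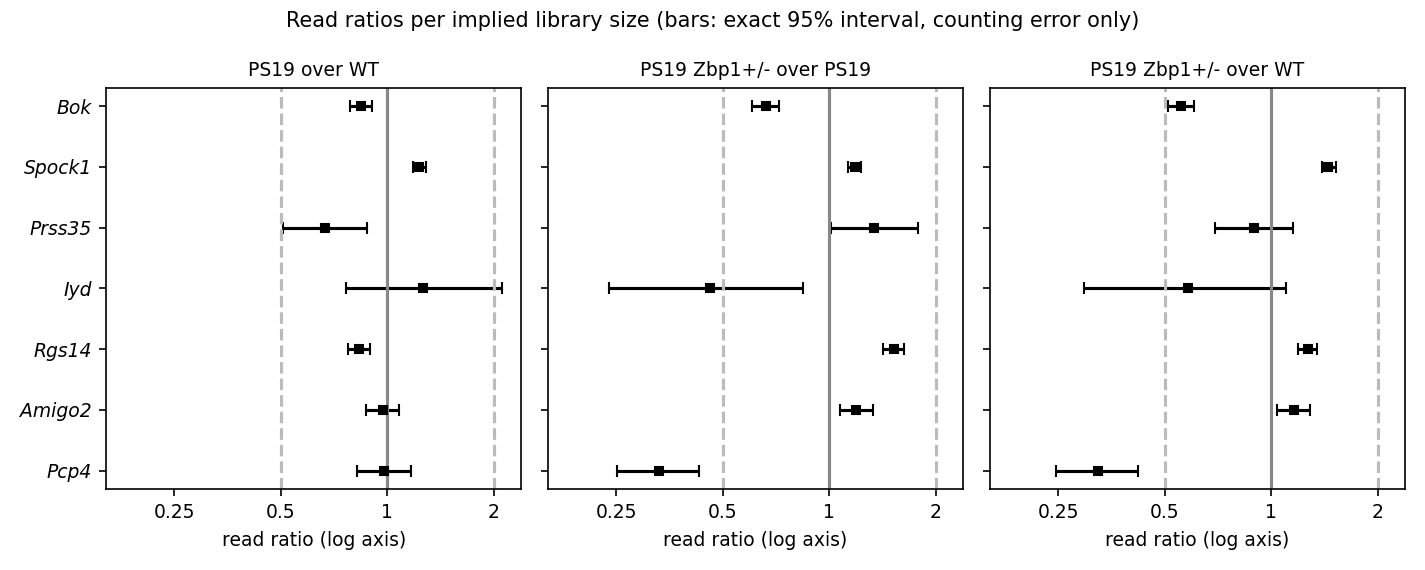
Read ratio of each marker per implied library size (log axis) for PS19 over WT, PS19 Zbp1+/- over PS19 and PS19 Zbp1+/- over WT, with exact 95% intervals as bars and dashed lines at 0.5 and 2. Pcp4 has its whole interval below 0.5 in both comparisons of PS19 Zbp1+/-, and all 7 ratios lie between 0.5 and 2 for PS19 over WT.

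Between PS19 and WT, 0 of the 7 markers were called, that is differed by at least 1 unit of log2(FPKM + 1), and 2.5% of the 12703 genes tested did (2.2% higher and 0.291% lower). In PS19 Zbp1+/- minus PS19, 1 of 7 was called, Pcp4, against 7.16% of 12772 genes (2.0% higher and 5.16% lower). In PS19 Zbp1+/- minus WT, 1 of 7 was called, again Pcp4, against 3.35% of 12436 genes (1.07% higher and 2.28% lower). At a threshold of 1.5-fold the calls were 0, 1 and 2 of 7, Bok joining Pcp4 in the last, against 9.05%, 21.5% and 13.8% of genes. With 7 genes, 1 call is too few to read against these shares. Both comparisons of PS19 Zbp1+/- use the same library, so they are not separate observations of a low Pcp4. The median difference of the CA3 markers was -0.03, -0.15 and -0.23 in the 3 comparisons in this order, and that of the CA2 markers -0.04, 0.24 and 0.20. All genes tested had medians of -0.03, 0.04 and 0.01.

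FPKM is per length, so levels of different genes can be set side by side, with limits. Reads over 243 of the 1026 exon bases of Pcp4 may be missing, which bears on its place beside Amigo2. GC content was not corrected for here, and the intervals cover counting error only. In WT the order from highest to lowest was Bok, Rgs14, Spock1, Pcp4, Amigo2, Prss35 and Iyd. The closest neighbours there were Rgs14 and Spock1, at a ratio of reads per length of 1.1 (exact 95% interval 1.03 to 1.16), and Pcp4 and Amigo2, at 1.21 (1.04 to 1.4). Neither interval includes 1. In PS19 Spock1 stood above Rgs14, Pcp4 was again above Amigo2 (1.22, 1.05 to 1.42), and the interval for Prss35 over Iyd includes 1 (1.15, 0.783 to 1.73). In PS19 Zbp1+/- the order began with Spock1 at 32.0, Rgs14 at 30.6 and Bok at 29.7. The ratio of Spock1 to Rgs14 was 1.05 (0.991 to 1.1) and that of Rgs14 to Bok 1.03 (0.953 to 1.12), so both intervals include 1. Amigo2 stood above Pcp4 in that library, at 2.95 (2.33 to 3.79).

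Shares of reads between 2 markers of a field do not depend on how libraries were scaled, and these pairs were chosen after the values had been seen. Of the reads of Pcp4 and Rgs14 together, Pcp4 took 12.7% in WT (exact 95% interval 11.2% to 14.2%), 14.6% in PS19 (12.9% to 16.3%) and 3.57% in PS19 Zbp1+/- (2.82% to 4.45%). The intervals of WT and PS19 overlapped, and that of PS19 Zbp1+/- was apart from both. Against Amigo2, the Pcp4 share was 28.2%, 28.4% and 9.9% in the same order. Of the reads of Bok and Spock1, Bok took 34.8% in WT (33.4% to 36.1%), 26.6% in PS19 (25.4% to 27.8%) and 16.9% in PS19 Zbp1+/- (15.9% to 18%), with no overlap among the 3 intervals. In these chosen pairs the shares differed by more than counting error, for Pcp4 only between PS19 Zbp1+/- and the other libraries. Because the pairs were picked by their values, the shares restate the differences above and are not a separate observation. These shares are not corrected for GC content or length. Between PS19 and WT, genes of like GC content and length had a median difference of -0.25 for Bok and 0.16 for Spock1. Their part in the Bok share was not tested. Amigo2 and Rgs14 kept a closer balance, with Amigo2 at 26.9%, 30.0% and 25.2% of the reads of that pair. Of the few reads of Iyd and Prss35, Iyd took 17.8% (12.3% to 24.4%), 29.0% (21.4% to 37.6%) and 12.3% (7.2% to 19.2%).

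**Figure D3:**
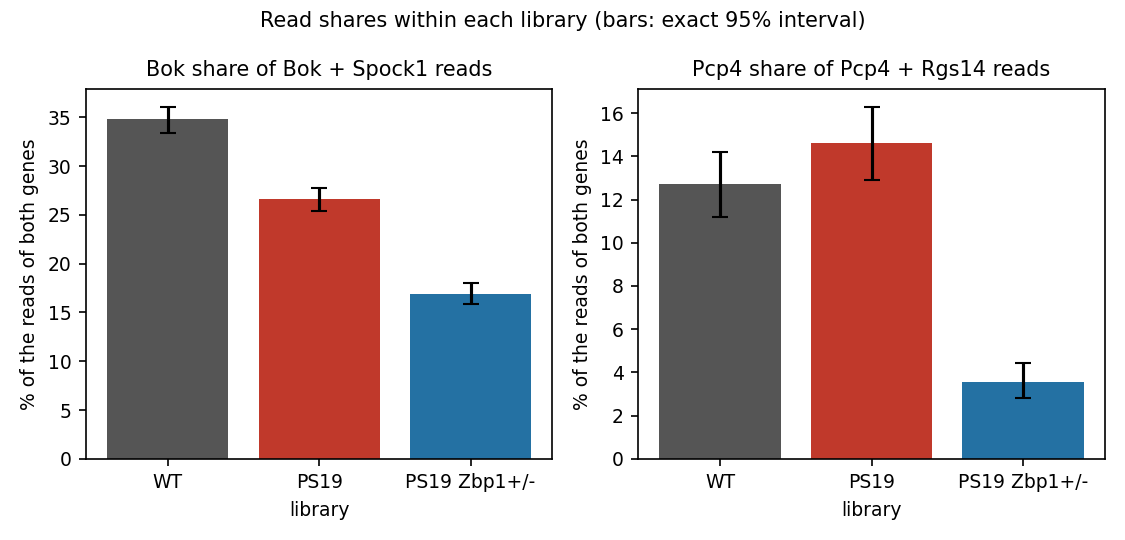
Share of Bok in the reads of Bok and Spock1 (left) and of Pcp4 in the reads of Pcp4 and Rgs14 (right), in percent, in each of the 3 libraries, with exact 95% intervals as bars. The Bok share is 34.8%, 26.6% and 16.9% and the Pcp4 share 12.7%, 14.6% and 3.57% in WT, PS19 and PS19 Zbp1+/-.

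Another 12 genes known for higher expression in CA3 were followed beside the markers. Between PS19 and WT, 4 were higher, 8 lower and 0 called, with a median of -0.08, and the most different were Mas1, a receptor for angiotensin peptides, at -0.36, Homer3 at 0.30 and Plagl1 at 0.30. Against PS19, PS19 Zbp1+/- had 6 higher and 6 lower genes, with a median of 0.00 and 1 called. That gene was Coch, which encodes the matrix protein cochlin, with 185 reads in PS19 and 56 in PS19 Zbp1+/- (ratio 0.331, 0.241 to 0.448). Socs2, an inhibitor of cytokine receptor signalling, was at 0.99 and Hs3st4, a heparan sulfate sulfotransferase, at 0.79. Grik4, the kainate receptor subunit concentrated at CA3 synapses, was at 9.63 FPKM (WT), 9.22 (PS19) and 13.6 (PS19 Zbp1+/-) (chosen after its values were seen). Like the 4 markers, these genes went both ways. Between PS19 Zbp1+/- and WT their median was 0.16, with Coch at -1.01, Socs2 at 0.78 and Rnf182 at -0.54.

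Of 12 further genes known from CA2, 11 were expressed enough to test between PS19 and WT. Their median there was 0.01, with 6 higher, 5 lower and 1 called. That gene was Sostdc1, a secreted antagonist of BMP and Wnt signals, at -1.29, followed by the neurotrophin Ntf3 at -0.86 and the growth factor Fgf2 at 0.62. Ntf3 reads numbered 133 (WT), 60 (PS19) and 60 (PS19 Zbp1+/-), so it was lower in both PS19 libraries than in WT. For PS19 Zbp1+/- minus PS19 the median was 0.09, with 7 higher, 4 lower and 2 called, Sostdc1 at -2.40 and Fgf2 at -1.10. Adcy5, an adenylyl cyclase, was at 0.86. Between PS19 Zbp1+/- and WT the median was 0.21 over 10 genes (6 higher, 4 lower) but -0.04 over all 12 (6 higher, 6 lower) with no filter on low values, with Sostdc1 at -3.69, Adcy5 at 0.87 and Ntf3 at -0.78. The vasopressin receptor Avpr1b, a CA2 gene tied to social memory, had 12 reads (WT), 11 (PS19) and 0 (PS19 Zbp1+/-), in a library where weak genes were often missing. With 3 reads in place of 0, Avpr1b was 3.36-fold lower than in PS19, leaving out counting error in the 11 reads.

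Sostdc1 is also a gene of the choroid plexus epithelium. The 10 choroid plexus genes listed had a summed FPKM of 3420 (WT), 2180 (PS19) and 25.8 (PS19 Zbp1+/-), with Slc4a5 at 0 reads in the last, and all 10 were called lower there than in PS19. Ttr alone was at 3040, 1840 and 7.05. For PS19 minus WT the median of the 10 was -0.23, with 8 lower and 2 higher. The part of the choroid plexus in Sostdc1 and in Pcp4 was not tested. Fgf2 is also made by astrocytes, whose list sums are given above, and their part in its values was not tested. Pcp4 is expressed in striatum and thalamus too. The 12 genes of those regions summed to 28.7 (WT), 51.0 (PS19) and 24.5 (PS19 Zbp1+/-), with none at 0. Prkcd, the strongest of them in WT and PS19, had 780, 2211 and 148 reads, while Pcp4 had 256, 251 and 76. Prkcd differed between PS19 and WT by a ratio of 2.83 (2.61 to 3.07), and the part of these regions in the lower Pcp4 value of PS19 Zbp1+/- was not tested.

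The other neuronal fields give the setting for these values. The 10 excitatory neuron genes had median differences of -0.21 for PS19 minus WT, 0.40 for PS19 Zbp1+/- minus PS19 and 0.33 for PS19 Zbp1+/- minus WT. The 8 CA1 pyramidal genes had medians of -0.38, 0.88 and 0.67, with Fibcd1 at 2.0 and Mpped1 at 1.59 in the second comparison. They did not move as 1 group. In the second, 7 were higher, with Wfs1 at only 0.04, and 1 was lower, Spink8 at -0.34. In the third, 6 were higher and 2 lower, Spink8 at -0.83 and Wfs1 at -0.46. The dentate granule genes, 9 of 10 of them tested, had medians of -0.02, -0.53 and -0.66, with Dsp at -1.17 and Lct at -1.04 in the second. There 8 were lower and 1 was higher, C1ql2 at 0.14. The CA3 and CA2 medians lay between those of CA1 and the dentate gyrus in both comparisons of PS19 Zbp1+/-, and whether the fields differ was not tested. Set against the excitatory neuron median, Pcp4 was at -1.82, Bok at -0.98, Amigo2 at -0.17, Spock1 at -0.18, Prss35 at -0.13, Iyd at -0.94 and Rgs14 at 0.18 in PS19 Zbp1+/- minus PS19.

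**Figure D4:**
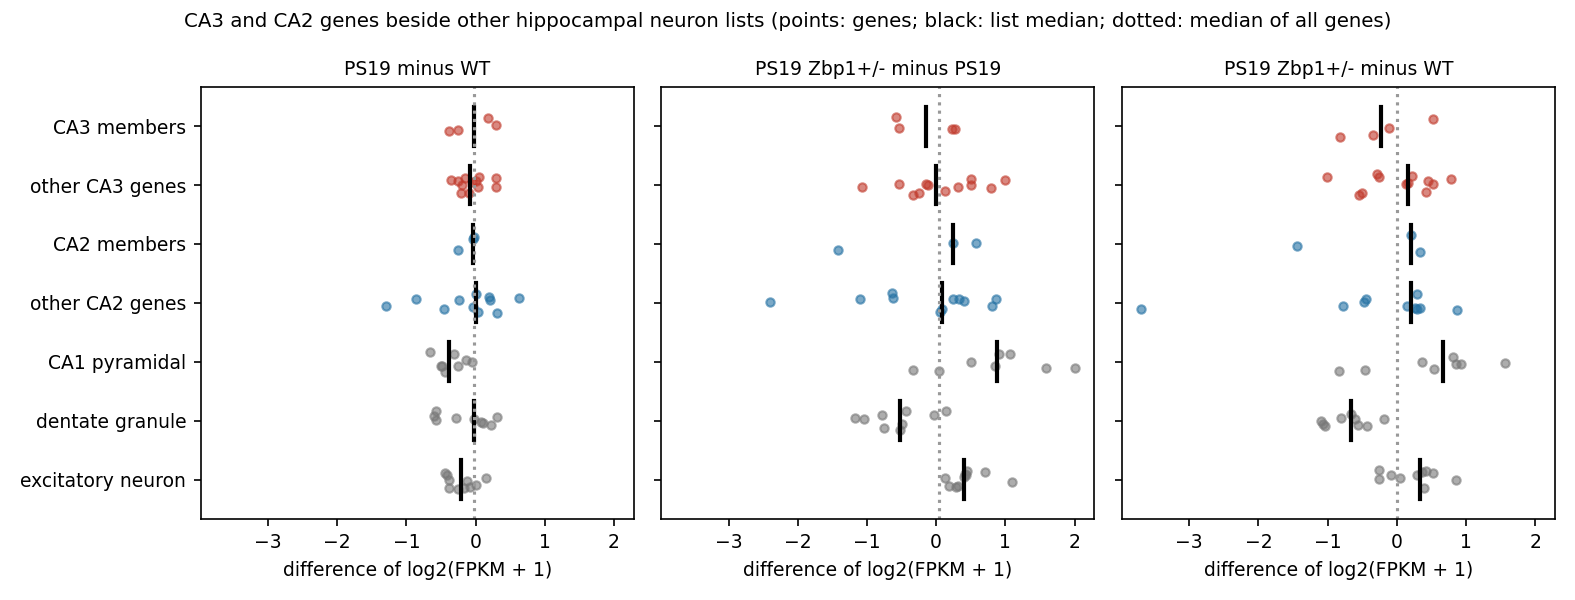
Difference of log2(FPKM + 1) for each tested gene (points) of the CA3 and CA2 markers, the other CA3 and CA2 genes, and the CA1, dentate granule and excitatory neuron lists, in the 3 comparisons; black bars are list medians and dotted lines the median of all genes tested. The CA3 and CA2 points spread to both sides of 0, from -2.40 for Sostdc1 to 0.99 for Socs2 in PS19 Zbp1+/- minus PS19, while the CA1 median is 0.88 and the dentate median -0.53.

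The pattern of each marker over the 3 libraries was compared with that of every protein-coding gene with a mean FPKM of at least 5, as the distance between centred log2(FPKM + 1) values. With only 3 libraries, closeness of this kind is common and describes these libraries alone. The nearest to Pcp4 were Gadd45g (25.8, 24.6 and 8.67 FPKM in the order WT, PS19, PS19 Zbp1+/-) and Rps27l (14.6, 14.0 and 4.88). Only 2 of 7712 genes were within 0.1 log2 units of Pcp4 in all 3 differences, against 21 for Bok, 89 for Spock1, 178 for Rgs14 and 331 for Amigo2. Bok was nearest to Ndufa3 and Ccdc117, Spock1 to Gabrb1 and Snrnp200, Rgs14 to Ppp1r37 and Crip2, and Amigo2 to Rab36 and Nelfa. The weak markers had 268 such genes for Prss35 and 80 for Iyd, of 7713, led by Mrpl58 and Ensa, and by Mbd2 and Tprkb. The log2(FPKM + 1) scale shrinks differences of weak genes, so these matches are looser in FPKM. Iyd was at 1.35 in PS19 and 0.623 in PS19 Zbp1+/-, and Mbd2 at 15.4 and 10.4.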

How the data were processed

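The authors deposited 1 table of FPKM values, 1 column per library. The submitters' processing notes name Trim Galore 0.6.5, STAR 2.5.3a, featureCounts 2.0.4 and mm39; strandedness, annotation release and filters are not given in the sources used here. Gene positions in the table equal those of GENCODE M21 (GRCm38) for 98.3% of the 54495 gene IDs found there, so they are given as GRCm38. Per the labels' protocols, TRIzol was used for RNA and an NEB Next Ultra kit for libraries.

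Each FPKM times gene length was a whole multiple of 1 step (within 0.01 reads) for 100% of values, which gave whole reads and implied library sizes of 17253479 (WT), 17287957 (PS19) and 15826984 (PS19 Zbp1+/-). The implied size of PS19 Zbp1+/- was below its 17109734 reads in genes, while those of WT and PS19 were above theirs. Read ratios are per implied size, with exact Clopper-Pearson 95% intervals. Per total reads, the ratios of PS19 Zbp1+/- over the other libraries would be lower. PCR copies of a molecule cannot be recognised without molecular identifiers, so intervals cover counting error only. Against 0 reads a ratio was taken with 3 reads, a bound that leaves out counting error in the other library.

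Differences are of log2(FPKM + 1), over protein-coding genes that reach an FPKM of 1 in either of the 2 libraries; called means at least 1 log2 unit. With 1 library per genotype no p-value was computed. The members and lists were chosen with earlier results of these data known. Named are the members, up to 3 genes with the largest differences per list and comparison, list genes at 0 reads, and the 2 genes nearest each member in pattern. Scripts were tested on simulated data. GC content came from the longest M21 transcript of each gene (known for 99.9%) and promoters from RefSeq (GRCm38.p6), which matched 6 of the 7 members. Alternatives were pseudocounts, filters, scalings, biotypes and a 1.5-fold threshold. After the data had been seen, a correction by GC content and length (10 and 5 bins) and the CA2 list without Sostdc1 were added. Software was Python 3.11.15 with scipy 1.17.1, pandas 2.3.3, numpy 2.4.6 and matplotlib 3.10.9.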

Additional observations from a re-analysis of the deposited data

How the results depend on the processing

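No paired analysis was possible because each genotype has 1 library. Pcp4 was called lower in both comparisons of PS19 Zbp1+/- under every alternative run, with differences of -1.82 to -1.33 from PS19 and -1.78 to -1.17 from WT; the ends nearest 0 came from the correction for GC content and length, added after the data had been seen. Of 183 values of single members under alternatives, 35 moved from the main value by more than its counting interval allows. By sign, 170 of the 183 were kept (Rgs14 at 0.00 between PS19 Zbp1+/- and WT, centred on the excitatory neuron median, among them) and 13 were not. The changes of sign were those of Bok, Amigo2 and Pcp4 between PS19 and WT, Prss35, Spock1 and Amigo2 between PS19 Zbp1+/- and PS19, and Amigo2 between PS19 Zbp1+/- and WT, all of differences under 0.30 in size. The count of called markers was 2 in place of 1 between PS19 Zbp1+/- and PS19 with a pseudocount of 0.1 (Iyd at -1.01), and 2 in place of 1 between PS19 Zbp1+/- and WT with a 1.5-fold threshold or centring on the excitatory neuron median (Bok at -0.82, or -1.16 when centred). Scaling by total reads and TPM moved the median of all genes between PS19 Zbp1+/- and PS19 from 0.04 to -0.12 and -0.20, and that of the other CA3 genes to -0.17 and -0.26. Centring on the excitatory neuron median put the other CA3 genes at 0.13, -0.40 and -0.18 in PS19 minus WT, PS19 Zbp1+/- minus PS19 and PS19 Zbp1+/- minus WT, and the other CA2 genes at -0.32 and -0.13 in the last 2. A mean FPKM of at least 5 left 4 of the other CA2 genes in each of the first 2 comparisons, with medians of -0.35 and 0.60; fewer genes were tested. Without Sostdc1 the CA2 medians were 0.03, 0.17 and 0.26. Medians of these lists also changed sign in PS19 minus WT (other CA3 genes 0.04 in TPM; other CA2 genes -0.02 with the GC and length correction) and in PS19 Zbp1+/- minus PS19 (other CA2 genes -0.04 by total reads and -0.11 in TPM). Depth limits Iyd (16 to 38 reads per library), Prss35 (93 to 139) and Pcp4 in PS19 Zbp1+/- (76).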

Other observations

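Relatives of the markers by family were also read, from a list of 14 genes. Pcp4l1, a close relative of Pcp4, had 1245 reads (WT), 1524 (PS19) and 582 (PS19 Zbp1+/-), and its read ratio for PS19 Zbp1+/- over PS19 was 0.417 (exact 95% interval 0.378 to 0.459). Like Pcp4, it was lowest in PS19 Zbp1+/-. Nrgn and Gap43, which encode small calmodulin-binding neuronal proteins, went the other way. Nrgn, neurogranin, had FPKM values of 780, 522 and 913, and Gap43, a growth cone protein, 95.4, 49.5 and 141. Gap43 was called higher in PS19 Zbp1+/- than in PS19, at 1.49, and had its lowest value in PS19.

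Among the testicans, Spock3 reads numbered 1326 (WT), 1595 (PS19) and 565 (PS19 Zbp1+/-), with a ratio of 0.387 for PS19 Zbp1+/- over PS19 (0.351 to 0.426). In that comparison Spock3 was at -1.24 and Spock1 at 0.23, or -0.05 in TPM. Of the 14 relatives, 1 was called higher and 2 lower between PS19 Zbp1+/- and PS19, with a median of -0.01, and 0 were called in the other comparisons. Rgs10, a relative of Rgs14 that is abundant in microglia, was at 0.49 between PS19 and WT and at -0.82 between PS19 Zbp1+/- and PS19. The 10 microglial genes summed to an FPKM of 128, 431 and 133 in WT, PS19 and PS19 Zbp1+/-, with Cst7 at 0 reads in the last, and their part in Rgs10 was not tested.

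The summed FPKM of the remaining cell type lists was 922, 1650 and 599 in WT, PS19 and PS19 Zbp1+/- for 10 oligodendrocyte genes, 107, 119 and 133 for 10 endothelial and mural genes, and 772, 559 and 748 for 10 interneuron genes, with no gene at 0. The interneuron sum is weighted to its strongest genes. Between PS19 and WT the interneuron genes had a median difference of 0.01, with 6 higher and 4 lower.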
